A study of Mus musculus with 8 samples.

Results

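A set of transcription factor genes of the non-β endocrine cells of the islet, Irx1, Irx2, Pou3f4, Hhex and Etv1, were followed in RNA from whole mouse islets. They were chosen by symbol, and 5 of 5 were found among the 32531 gene symbols of the count table. All 5 were among the 15082 genes with enough counts to be tested, since each had at least 15 counts in every library. Islets of 4 β-tetO-NICD mice (RIP-Cre+, Rosa26-rtTA+, tetO_NICD+) were compared with those of 4 controls (RIP-Cre+, Rosa26-rtTA+, tetO_NICD-). Every mouse of either group therefore carried Cre and rtTA, was of a mixed C57BL/6J, 129X1/SvJ and BALB/c background, and received doxycycline (Dox) in drinking water for 8 weeks. The insulin promoter that drives Cre is meant to restrict transgene induction to β cells, in which Dox then turns on NICD, the signalling-competent intracellular part of Notch1. The α, δ and other cells of these islets carry the same alleles without induction by design, and the labels do not give the age of the mice. The comparison asks how genes that mark the neighbouring endocrine cells differ when Notch is active in β cells.

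Islet α cells secrete glucagon and δ cells secrete somatostatin, and each type is held in its state by a small set of homeobox and related transcription factors. Irx1 and Irx2 encode Iroquois homeobox proteins that are expressed in α cells rather than β cells. Pou3f4, also called Brn4, encodes a POU domain protein that binds the glucagon gene promoter, and Hhex encodes a homeobox protein needed to keep δ cells and their somatostatin. Etv1 encodes an ETS factor of the PEA3 group that is also well known in neurons. Neurog3, the basic helix-loop-helix factor of endocrine progenitors, was read beside them.

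Irx1 and Irx2 lie in the same gene cluster. In GENCODE M21 on GRCm38, Irx1 is at chr13:71957921-71963723 on the minus strand (4 exons) and Irx2 is at chr13:72628820-72634198 on the plus strand (5 exons), with 665 kb between them. Hhex is at chr19:37434810-37440731 on the plus strand (4 exons), Etv1 at chr12:38779380-38870484 on the plus strand (13 exons), and Pou3f4 at chrX:110814280-110817207 on the plus strand in a single exon. No other annotated gene overlaps any of them. The 250 bases before the annotated start sites of Irx2 and Hhex are shown because these genes, of which each rose in β-tetO-NICD islets, lie on different chromosomes and mark different cell types. They come from RefSeq on GRCm38.p6 and are both on the plus strand, at chr13:72628570-72628819 for Irx2 and chr19:37434591-37434840 for Hhex. Capitals mark the letters TGGGAA, the core recognised by RBPJ, the DNA-binding partner of NICD, searched on both strands, so that a match on the other strand reads TTCCCA.
Irx2: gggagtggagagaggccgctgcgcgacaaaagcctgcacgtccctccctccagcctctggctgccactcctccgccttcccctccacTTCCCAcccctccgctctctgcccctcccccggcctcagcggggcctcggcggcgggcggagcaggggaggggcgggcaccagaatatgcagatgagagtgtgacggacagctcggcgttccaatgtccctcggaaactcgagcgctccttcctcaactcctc
Hhex: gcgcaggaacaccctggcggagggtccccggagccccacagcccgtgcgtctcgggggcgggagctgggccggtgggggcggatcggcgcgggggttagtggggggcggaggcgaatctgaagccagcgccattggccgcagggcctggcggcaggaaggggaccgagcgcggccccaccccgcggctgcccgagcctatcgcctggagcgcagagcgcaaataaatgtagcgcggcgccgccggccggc
The Irx2 stretch holds 1 such match, 163 bases before the start site, and the Hhex stretch holds none. Of the 32851 promoter stretches of this length in the same source, 21.6% hold the letters, so the match is a description only. The E-box letters CACGTG, a palindrome bound by basic helix-loop-helix proteins, were found in neither and are held by 6.02% of all stretches. Both stretches are rich in G and C, at 68.4% for Irx2 and 76% for Hhex against a median of 52.4%, and they hold 19 and 32 CpG dinucleotides against a median of 6. The stretches for Pou3f4 and Etv1, for which RefSeq gives 1 and 2 start sites, hold neither set of letters.

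Total counts per library ranged from 22430941 to 25950164 in controls and from 21701223 to 26413146 in β-tetO-NICD islets. Notch1, to which reads of an NICD transgene can be assigned, rose from 56.9 ± 10.7 to 1029.9 ± 331 CPM (SD, n = 4 per group), where CPM is the count scaled to library size after TMM normalization, with an adjusted p of 0.000102 by edgeR's quasi-likelihood test. Libraries differed in how their counts varied with transcript length. Spearman's rho across 14655 genes, between length and the deviation of a library from the mean, was 0.441 to 0.511 in controls 1, 2 and 4 and, among β-tetO-NICD libraries, 0.474 in library 1, but -0.182 in control 3 and -0.546 to -0.363 in the other β-tetO-NICD libraries. The methods name males for gene expression, yet Eif2s3y, a Y-linked gene, had at most 1 count in 5 of the 8 libraries. Ins1 and Ins2, the insulin genes, took 15.0% to 17.3% of the counts in controls and 6.16% to 13.9% in β-tetO-NICD libraries. Summed CPM of 10 acinar genes ranged from 32416 to 64990 in controls and from 27272 to 99221 in β-tetO-NICD islets.

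Irx1, Irx2 and Hhex rose in β-tetO-NICD islets, while Pou3f4 and Etv1 did not pass the test in either direction. Of the 5 genes, 3 were called higher and 0 lower at an adjusted p under 0.05, where 4.19% of all tested genes were called higher and 2.57% lower. The count of 3 became 0 when any of controls 1, 2 and 4 or β-tetO-NICD libraries 2 and 5 was left out, and also with the length trend or the Eif2s3y level as a covariate. For Irx1 and Hhex every β-tetO-NICD library lay above the highest control, a pattern found in 8.22% of all tested genes. The median log2 fold change of the 5 genes was 1.01, against 0.00 over all tested genes. In whole islets, fewer cells of a type and less RNA per cell cannot be told apart, nor can more cells and more RNA per cell.

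**Figure D1:**
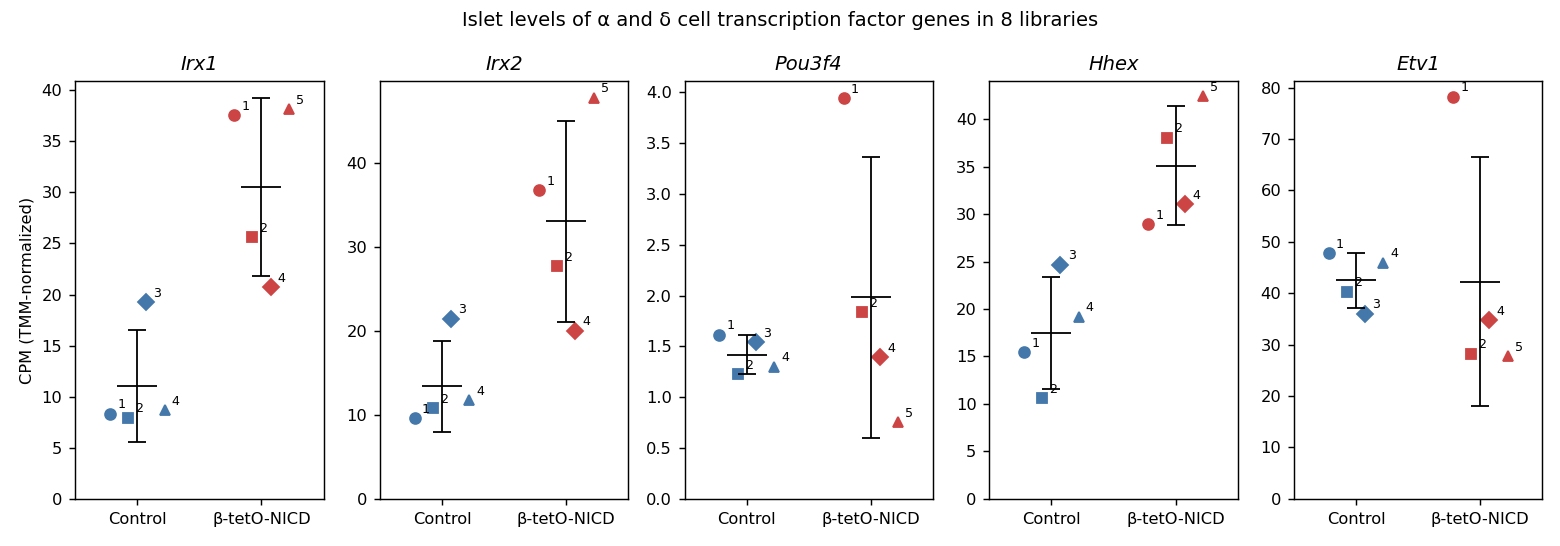
CPM of Irx1, Irx2, Pou3f4, Hhex and Etv1 (linear axes from 0) in each of the 4 control and 4 β-tetO-NICD libraries, with the mean and SD of each group. Irx1 and Hhex separate the groups, Irx2 overlaps through control 3 and β-tetO-NICD library 4, and Pou3f4 and Etv1 are highest in β-tetO-NICD library 1.

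Irx1 was 8.35, 7.94, 19.3 and 8.69 CPM in controls 1 to 4. In β-tetO-NICD libraries 1, 2, 4 and 5 it was 37.5, 25.6, 20.7 and 38.1 CPM. Control 3 was more than double the other controls and came close to β-tetO-NICD library 4, but the groups did not overlap. The means were 11.1 ± 5.48 CPM in controls against 30.5 ± 8.70 CPM in β-tetO-NICD islets (SD, n = 4 per group). The fold change was 2.75, or 1.46 on the log2 scale (SE 0.33, 95% interval 0.73 to 2.19), with an adjusted p of 0.0301, or 0.0819 with the length trend and 0.0514 with the Eif2s3y level as a covariate.

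Irx2 was 9.64, 10.8, 21.4 and 11.8 CPM in the controls and 36.7, 27.7, 20.02 and 47.8 CPM in the β-tetO-NICD libraries. It thus followed the order of Irx1 closely, with control 3 high among the controls and library 4 lowest among the β-tetO-NICD libraries, and here these values crossed, so that 3 of 4 β-tetO-NICD libraries exceeded the highest control. The means were 13.4 ± 5.42 and 33.1 ± 11.9 CPM (SD, n = 4 per group), a fold change of 2.46, or 1.30 on the log2 scale (SE 0.32, 95% interval 0.58 to 2.02), with an adjusted p of 0.0431, or 0.136 and 0.0657 with the same covariates.

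The balance between the Iroquois genes did not pass a test for a difference between the groups. The log2 ratio of Irx1 to Irx2 counts within a library was -0.31 ± 0.15 in controls and -0.09 ± 0.17 in β-tetO-NICD islets (SD, n = 4 per group), a difference of 0.22 with an exact two-sided permutation p of 0.114. Among the other Iroquois genes, Irx3 was low and did not pass the test, at 0.97 and 1.54 CPM (log2 change 0.67, adjusted p 0.292). Irx4, which lies next to Irx2 in the same cluster, had at most 1 count in any library, Irx5 at most 2, and Irx6 had 0 in every library. The Iroquois signal of these islets was therefore nearly all from Irx1 and Irx2.

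Gcg, the glucagon gene, was read beside the Iroquois genes to see whether they moved more than this hormone gene. It does not stand for α cell RNA as a whole. Gcg took 1.09%, 2.08%, 4.005% and 1.94% of the counts in controls 1 to 4 and 5.75%, 6.48%, 6.09% and 5.81% in the β-tetO-NICD libraries, which did not overlap. Control 3, the control with the highest Irx1 and Irx2, was also the control with the highest share of Gcg. Its log2 fold change was 1.44 with an adjusted p of 0.0622, which misses the threshold.

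Per 100000 Gcg counts there were 73.8, 40.3, 46.9 and 47.0 Irx1 counts in the controls and 63.3, 38.2, 38.8 and 58.5 in the β-tetO-NICD libraries. Read against Gcg, the groups overlapped, although β-tetO-NICD libraries 2 and 4 lay below every control, as they also did for Irx2. The log2 ratio of Irx1 to Gcg differed by -0.07 between the groups (exact two-sided permutation p = 0.914) and that of Irx2 to Gcg by -0.29 (exact p = 0.343). With an offset for transcript length these differences turned to 0.30 and 0.13, neither past the threshold. These are 2 of 5 ratios tested in this way, for which the smallest p that 70 arrangements allow is 0.0286 and the smallest Benjamini-Hochberg adjusted value was 0.286.

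**Figure D2:**
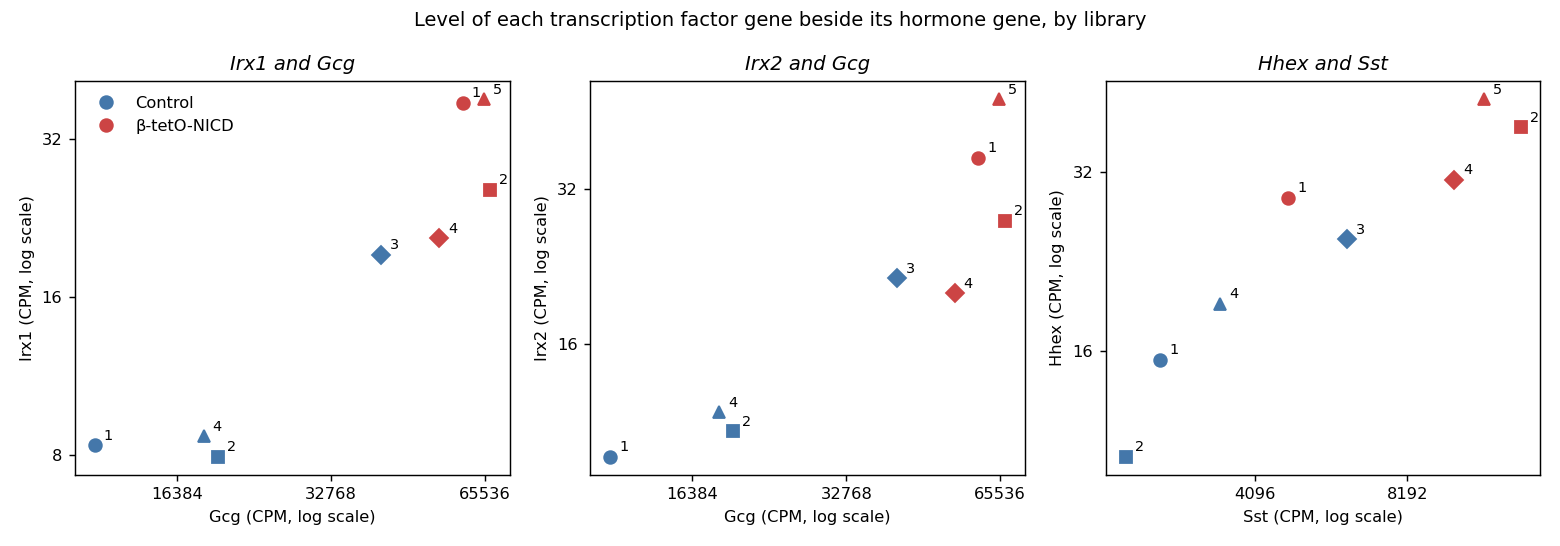
CPM of Irx1 and Irx2 against Gcg, and of Hhex against Sst, in each numbered library (base 2 log axes). The 4 β-tetO-NICD libraries lie at the upper end of both axes for Irx1, Irx2 and Gcg, except that control 3 lies above library 4 in Irx2. In the panel for Hhex, β-tetO-NICD library 1 lies below control 3 in Sst but above it in Hhex.

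Pou3f4 was the lowest of the 5 genes and did not change by the test. It was 1.61, 1.22, 1.54 and 1.30 CPM in the controls, from 29 to 39 counts, and 3.94, 1.83, 1.39 and 0.756 CPM in the β-tetO-NICD libraries, from 15 to 83 counts. The controls stayed within a 1.32-fold range, whereas the β-tetO-NICD libraries spanned 5.22-fold and lay on both sides of the controls. The log2 fold change was 0.48 (SE 0.45, 95% interval -0.53 to 1.48) with an adjusted p of 0.471, so the interval holds a fall as well as a rise of the size seen for Irx2. It rested on β-tetO-NICD library 1, since without that library it was -0.09.

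Relative to Gcg, Pou3f4 was lower than in every control in 3 of 4 β-tetO-NICD libraries, without passing the test. Per 100000 Gcg counts there were 14.3, 6.21, 3.75 and 7.03 Pou3f4 counts in the controls and 6.65, 2.74, 2.61 and 1.16 in the β-tetO-NICD libraries. The difference in the log2 ratio was -1.35 (exact two-sided permutation p = 0.0857), and the groups overlapped through β-tetO-NICD library 1. With a length offset it was -0.87 (exact p = 0.143). The related POU genes Pou3f1, Pou3f2 and Pou3f3 had too few counts to be tested.

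Other genes of α cell identity give the setting for these values. Of the 7 tested, 2 rose and 0 fell, or 3 and 0 with upper-quartile normalization, with a median log2 fold change of 1.10 against 0.00 over all tested genes. Gc, which encodes the vitamin D-binding protein and marks α cells in mouse islets, rose from 61.8 ± 12.4 to 379 ± 75.8 CPM (SD, n = 4 per group), which is a log2 change of 2.62 with an adjusted p of 0.000159. Slc38a5, an amino acid transporter gene of α cells, rose from 12.9 to 27.8 CPM (log2 change 1.10, adjusted p 0.0230). Each of these separated the groups without overlap, as Gcg did.

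The remaining genes of that list did not pass the test and went in either direction. Ttr, which encodes transthyretin, had a log2 change of 1.34 (adjusted p 0.0553) and also separated the groups without overlap. With it, 4 of the 7 genes had every β-tetO-NICD library above the highest control, against 8.22% of all tested genes. The somatostatin receptor gene Sstr2 had a log2 change of 0.62 (adjusted p 0.140). Values below 0 were those of the amino acid transporter gene Slc7a2 (-0.55) and the imprinted zinc finger gene Peg3 (-0.83).

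**Figure D3:**
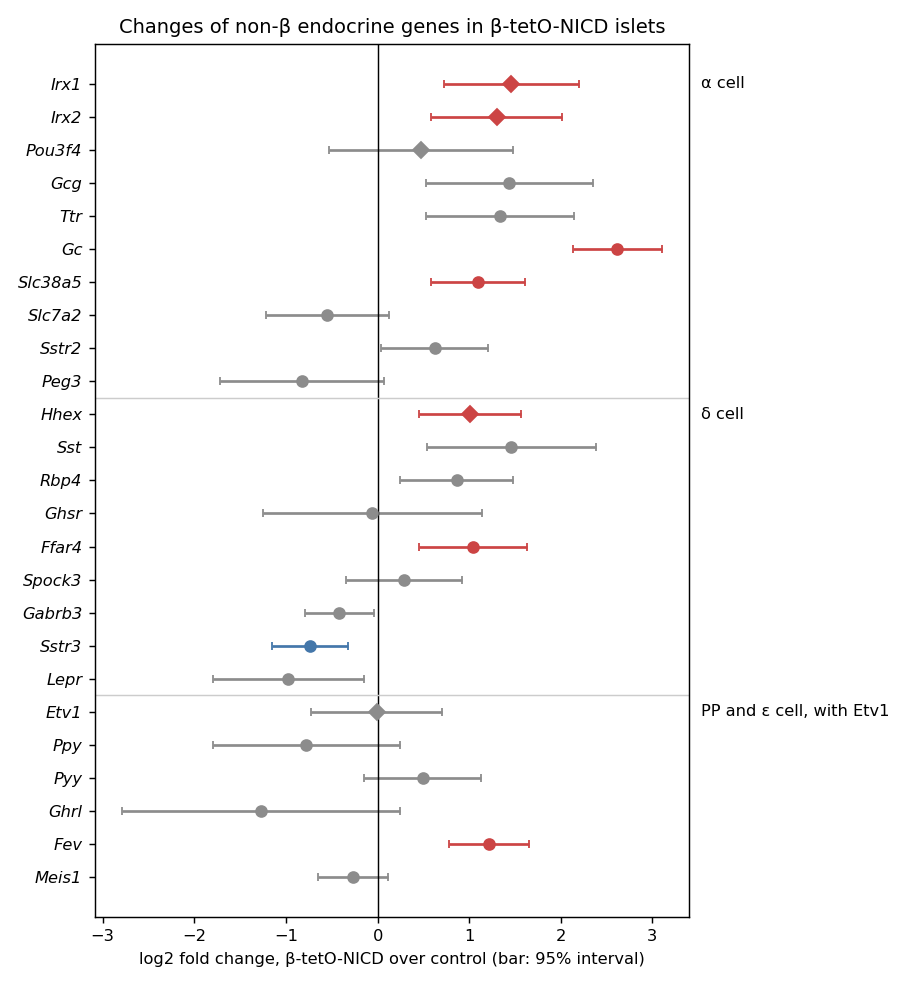
Log2 fold change, β-tetO-NICD over control, with its 95% interval, for the 5 genes (diamonds) and the other genes of the α, δ, and PP and ε cell lists (circles), with genes called higher in red, called lower in blue and not called in grey. Irx1 at 1.46 and Irx2 at 1.30 lie between Slc38a5 at 1.10 and Gc at 2.62, and Hhex at 1.01 lies close to Ffar4 at 1.04.

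Hhex was 15.4, 10.6, 24.7 and 19.2 CPM in the controls and 28.9, 38.0, 31.0 and 42.4 CPM in the β-tetO-NICD libraries. As for the Iroquois genes, control 3 was the highest control, but every β-tetO-NICD library lay above it. The means were 17.5 ± 5.94 and 35.1 ± 6.23 CPM (SD, n = 4 per group), a fold change of 2.01, or 1.01 on the log2 scale (SE 0.25, 95% interval 0.45 to 1.56), with an adjusted p of 0.0436, or 0.175 and 0.0693 with the same covariates.

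Sst, the somatostatin gene, took 0.256%, 0.240%, 0.606% and 0.367% of the counts in the controls and 0.461%, 1.33%, 1.15% and 1.03% in the β-tetO-NICD libraries. The groups overlapped through control 3 and β-tetO-NICD library 1, and the log2 fold change of 1.46 had an adjusted p of 0.0619. Per 1000 Sst counts there were 5.82, 4.67, 3.96 and 5.51 Hhex counts in the controls and 6.08, 2.77, 3.07 and 3.66 in the β-tetO-NICD libraries. Library 1, which had the least Sst of its group, had the most Hhex for its Sst, and the others were below every control. The difference in the log2 ratio was -0.41 (exact two-sided permutation p = 0.229), and with a length offset it was -0.053 (exact p = 0.8286).

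The other genes of δ cell identity did not move one way. Of the 8 tested, 1 rose and 1 fell, and the median log2 fold change was 0.11. Ffar4, a long-chain fatty acid receptor gene, rose from 13.7 to 28.3 CPM (log2 change 1.04, adjusted p 0.0463) without overlap. Sstr3, a somatostatin receptor gene that β cells also express, fell from 283 to 170 CPM (log2 change -0.74, adjusted p 0.0456), a call that was lost with upper-quartile normalization. With a length offset neither gene was called. Rbp4, the retinol-binding protein gene, had a log2 change of 0.86 (adjusted p 0.0820), the ghrelin receptor gene Ghsr had -0.06 and the leptin receptor gene Lepr had -0.97 (adjusted p 0.118).

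Because Hhex is also known in endothelial, ductal and blood lineages, markers of those cells were read beside it. Of the 7 endothelial and 8 ductal genes tested, 0 were called in either direction, and their summed CPM overlapped, at 433 to 663 against 558 to 719 for endothelial and 233 to 326 against 253 to 477 for ductal genes (controls first). Among the ductal genes, Krt19, a keratin gene, had a log2 change of 1.17 without overlap (adjusted p 0.0597) and Spp1, the osteopontin gene, had 1.25 (adjusted p 0.0556). Of the 8 leukocyte genes tested, 1 was called: C1qa, a macrophage complement gene, rose from 77.6 to 150 CPM (log2 change 0.95, adjusted p 0.0273). The summed CPM of the leukocyte list was 156 to 210 in controls and 229 to 330 in β-tetO-NICD islets, without overlap. C1qa alone held 62.1 to 98.0 CPM of the control sums and 112 to 181 CPM of the β-tetO-NICD sums. The log2 changes of C1qb (0.75), C1qc (0.41), Ptprc (0.32), Csf1r (0.09), Lyz2 (0.07), Cd68 (0.0009) and Adgre1 (-0.38) were not called. The T cell marker Cd3e had too few counts to be tested. In the paper, macrophages and endothelial cells of the islet were unchanged in β-tetO-NICD mice. The part of these cells in the Hhex result was not tested.

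Etv1 had almost equal group means and very unequal spreads. It was 47.8, 40.3, 36.0 and 45.9 CPM in the controls and 78.3, 28.3, 34.8 and 27.7 CPM in the β-tetO-NICD libraries. β-tetO-NICD library 1 was above every control, and the other 3 were below the lowest control. The means were 42.5 ± 5.38 and 42.3 ± 24.2 CPM (SD, n = 4 per group), and the log2 fold change was -0.01 (SE 0.32, 95% interval -0.72 to 0.70) with an adjusted p of 0.988. Without library 1 the log2 fold change was -0.49 with an adjusted p of 0.0388, in a fit where calls over all genes rose from 1020 to 5011. With the length trend as a covariate it was 0.48 (adjusted p 0.204).

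With 6576 bases in its longest coding transcript, Etv1 is the longest of the 5 genes, and Hhex, with 1802 bases, is the shortest. Etv1 was lower in the 4 libraries with a negative length trend (27.7 to 36.0 CPM) than in the 4 with a positive one (40.3 to 78.3 CPM). Hhex was 10.6 to 28.9 CPM in the libraries with a positive trend and 24.7 to 42.4 CPM in those with a negative one. The part of the length trend in these results was not tested beyond the fits that follow.

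Within libraries of like trend, Irx1, Irx2 and Hhex were on average higher in β-tetO-NICD islets on either side. Among libraries with a positive trend, β-tetO-NICD library 1 exceeded the mean of controls 1, 2 and 4 by 2.16 on the log2 scale for Irx1, 1.77 for Irx2, 1.47 for Pou3f4, 0.98 for Hhex and 0.81 for Etv1. Among those with a negative trend, the mean of β-tetO-NICD libraries 2, 4 and 5 exceeded control 3 by 0.50 for Irx1, 0.47 for Irx2 and 0.58 for Hhex, whereas the difference was -0.28 for Pou3f4 and -0.26 for Etv1. On that side Irx2 in β-tetO-NICD library 4 (20.02 CPM) was still below control 3 (21.4 CPM). One group has a single library in the contrast on each side, so neither contrast was tested alone. In a fit of all 8 libraries with the sign of the trend as a covariate, chosen after seeing the data, Irx1 was called at 1.36 (adjusted p 0.0484), while Irx2 at 1.17 (adjusted p 0.0806) and Hhex at 0.76 (adjusted p 0.0905) were not. With the trend itself as a covariate, none of the 5 genes was called and the log2 fold changes were 1.33 for Irx1, 1.12 for Irx2, 0.87 for Pou3f4, 0.68 for Hhex and 0.48 for Etv1, while calls over all genes went from 1020 to 447. With a length offset in its place, Irx1, Irx2 and Hhex were each called, at 1.37, 1.25 and 0.75, in a fit that called 1585 genes in all.

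**Figure D4:**
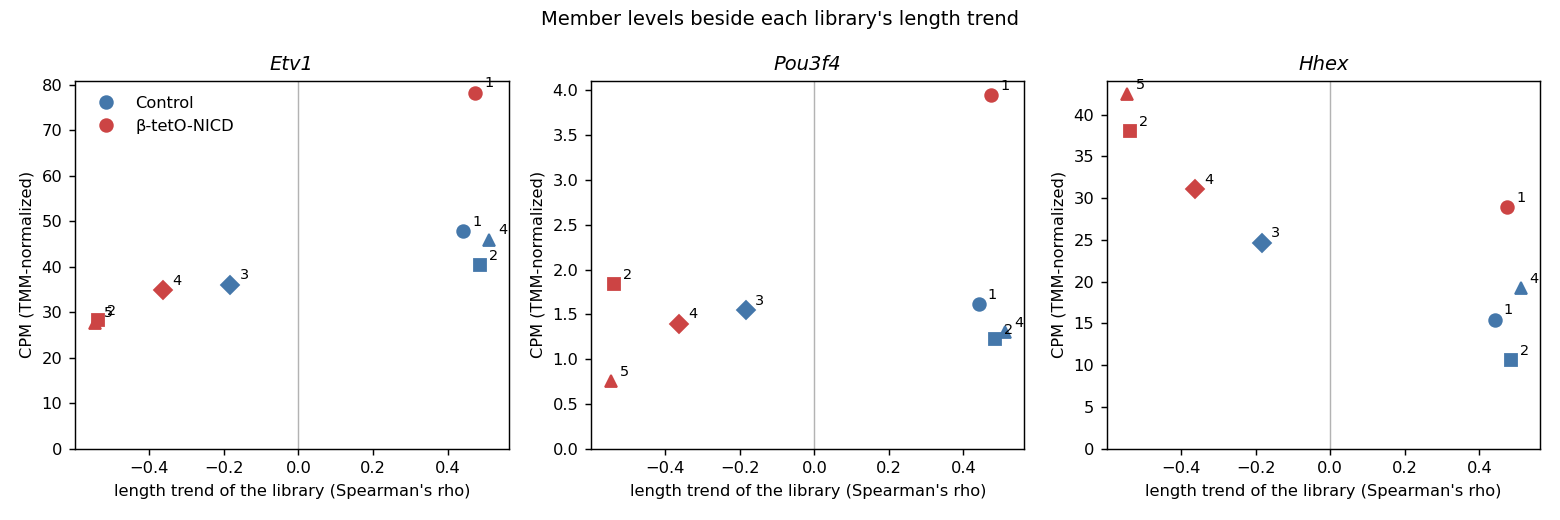
CPM of Etv1, Pou3f4 and Hhex (linear axes from 0) against the length trend of each numbered library, Spearman's rho between transcript length and the deviation of the library across 14655 genes. Controls 1, 2 and 4 share the positive side with β-tetO-NICD library 1, and control 3 shares the negative side with β-tetO-NICD libraries 2, 4 and 5.

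Etv1 is also known from pancreatic polypeptide (PP) cells, and genes of PP and ε cells were read beside it. Of the 5 tested, 1 rose and 0 fell, with a median log2 fold change of -0.27. Fev, an ETS gene of endocrine precursors and serotonergic neurons, rose from 6.52 to 15.2 CPM (log2 change 1.22, adjusted p 0.00705). Ppy, the pancreatic polypeptide gene, had a log2 change of -0.78 (adjusted p 0.254) and Ghrl, the ghrelin gene, had -1.27 (adjusted p 0.217). Of the other PEA3 group genes, Etv5 had 0.26 (adjusted p 0.605) and Etv4 had too few counts to be tested.

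Transcription factors shared by islet endocrine cells did not rise as a group. Of the 10 tested, 1 was called higher and 0 lower, or 1 higher and 2 lower with a length offset, and the median log2 fold change was -0.33. Neurog3 rose from 3.60 to 11.9 CPM (log2 change 1.72, adjusted p 0.00438), whereas Pax6, which all islet endocrine cells use, had -0.61 (adjusted p 0.0598) and the LIM homeobox gene Isl1 had -0.07. Of 3 β cell factors, 0 were called. Pdx1 and Nkx6-1 each had a log2 change of 0.04, and Mafa, the factor of mature β cells, had -0.86 (adjusted p 0.207).

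Per kilobase of the longest coding transcript, Hhex was the most abundant of the 5 genes in controls, at 9.70 ± 3.30 CPM per kb. Etv1 followed at 6.46 ± 0.818, Irx2 at 5.11 ± 2.07 and Irx1 at 4.66 ± 2.31 CPM per kb (SD, n = 4), and the ranges of each neighbouring pair in this order overlapped. Pou3f4, at 0.485 ± 0.0641 CPM per kb, was below every library of the others. In β-tetO-NICD islets Hhex was again first, at 19.5 ± 3.46 CPM per kb, and Irx1 at 12.9 ± 3.67 and Irx2 at 12.6 ± 4.55 now stood above Etv1 at 6.43 ± 3.68 CPM per kb, though their ranges still overlapped. Pou3f4 was again last, at 0.677 ± 0.472 CPM per kb.

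The genes whose profile over the 8 libraries was most like each of the 5 were found by the root mean square of the difference between log2 CPM profiles, each set to a mean of 0. Irx2 was the gene most like Irx1, at 0.178, and Irx1 was the gene most like Irx2, among 12762 genes compared. Next to Irx1 stood Efna5, an Ephrin ligand gene, at 0.307 and Edn3, the endothelin 3 gene, at 0.309, with Gcg at rank 4. For Irx2 they were Edn3 at 0.274 and BC048546 at 0.289, with Gcg at rank 24. For Hhex they were Supt3 at 0.150, C1qa at 0.173 and Spin2c at 0.173, whereas Sst was at rank 938.

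The genes most like Etv1 and Pou3f4 had longer transcripts than those most like Hhex. For Etv1 they were Srrm4 at 0.142, Myt1l at 0.173 and Ptprk at 0.184, with longest coding transcripts of 7472, 7202 and 6177 bases. For Pou3f4 they were Slc6a19 at 0.194, Arnt2 at 0.255 and Col7a1 at 0.279, with 3936, 6228 and 9250 bases. Those most like Hhex had 1508, 1040 and 1309 bases. All of these profiles share the same 8 libraries and therefore also their length trends.

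**Figure D5:**
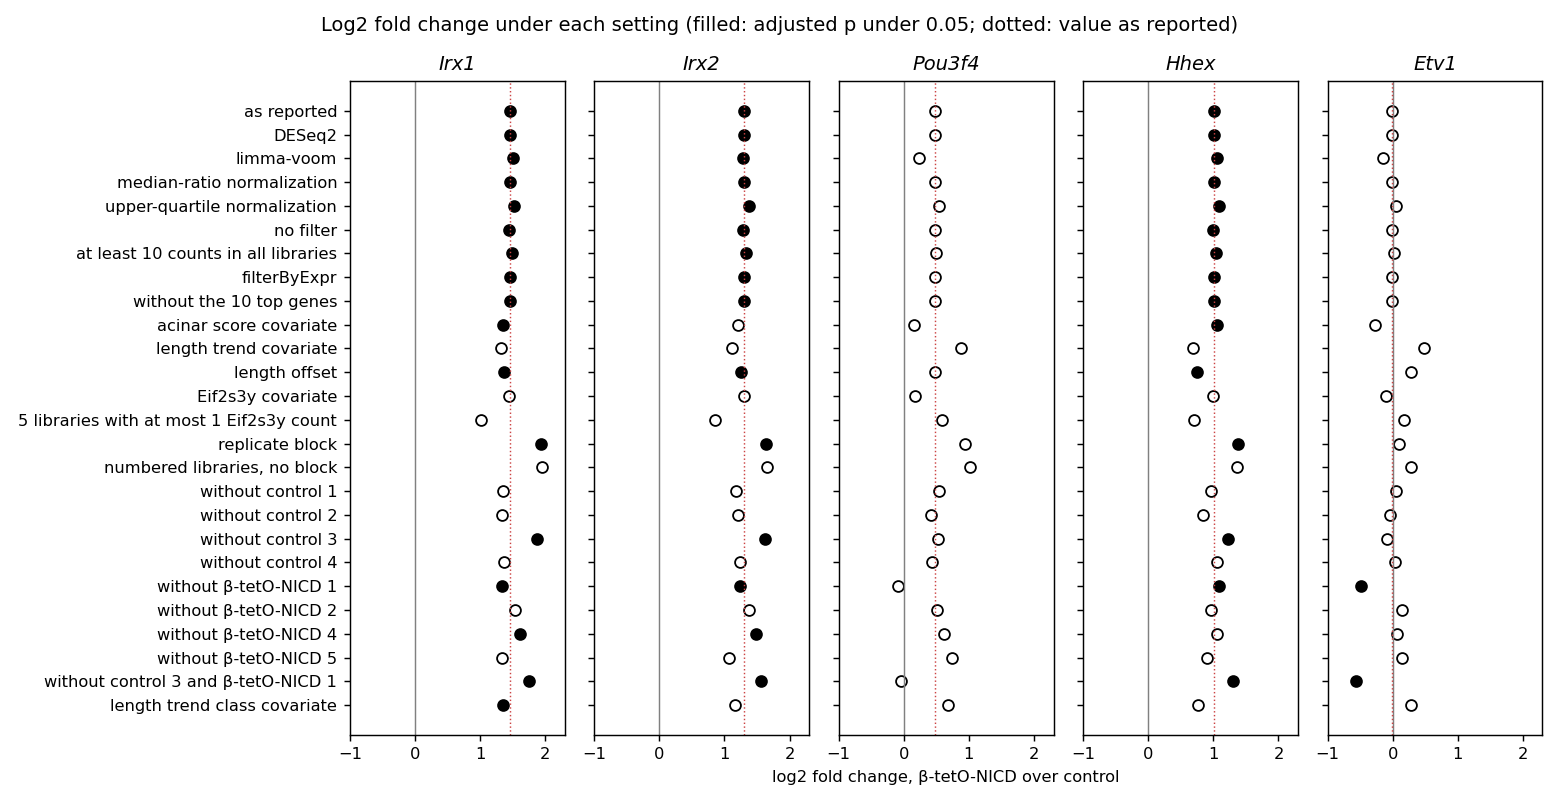
Log2 fold change of each of the 5 genes, β-tetO-NICD over control, under every setting tried, with filled points for an adjusted p under 0.05 and a dotted line at the reported value. Irx1, Irx2 and Hhex stay above 0 throughout but lose the call in several settings, and Etv1 lies on either side of 0.

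The calls for Irx1, Irx2 and Hhex were close to the threshold and depended on single libraries. Beside the libraries named above, without β-tetO-NICD library 4 the call for Hhex was lost, whereas all 3 calls stayed without control 3 or without β-tetO-NICD library 1. Over the 8 fits that leave out 1 library the log2 fold change ranged from 1.33 to 1.87 for Irx1, from 1.07 to 1.62 for Irx2 and from 0.83 to 1.22 for Hhex. With Eif2s3y level as a covariate the log2 fold changes were 1.45, 1.31 and 0.997, and in the 5 libraries with at most 1 Eif2s3y count the values were 1.01, 0.85 and 0.70, none of them called. With the acinar score as a covariate, the adjusted p of Irx2 was 0.0620.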

How the data were processed

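Stranded poly(A) RNA libraries were sequenced from the islets of 8 mice, 4 per genotype. The authors pseudoaligned reads to the GRCm38 transcriptome with kallisto and deposited whole-number counts per gene symbol. Its version, the annotation release and the rounding are not given in the sources used here. A deposited table of the authors' own limma comparison (log2 fold changes, mean expression, t, p values, log odds) was not used. The β-tetO-NICD columns are numbered 1, 2, 4 and 5 but the mice 1 to 4, so columns 4 and 5 were assigned to the group only. Libraries are labelled as separate mice, and no pair within a group agreed within sampling noise (chi-square of at least 31.5 per gene).

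The tests were run in edgeR 4.0.16 (R 4.3.3) on the 15082 genes that reached 10 counts in 4 or more libraries, by TMM normalization and the quasi-likelihood test (glmQLFit, glmQLFTest), with Benjamini-Hochberg adjustment and a threshold of 0.05. Adjusted p values are from this fit unless another is named. Ratios of counts within a library, with 0.5 added, were compared by exact two-sided permutation over 70 arrangements. Alternatives were DESeq2 1.42.0, limma-voom (limma 3.58.1), other normalizations and filters, covariates, offsets and leaving out libraries. Fits were tested on simulated data. The 5 genes, the gene lists and the tests were chosen with earlier results of these data known. Named genes were the 5, members of the lists that were called or whose role bears on them, neighbouring genes, and the 3 most alike in profile, among genes with a mean of at least 50 counts. A few genes of the lists, and the ratios that used 1 of them, are not reported here, and list counts and medians are without them. Lengths are from GENCODE M21, which matched 97.2% of tested genes.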

Additional observations from a re-analysis of the deposited data

Results flagged for a closer look

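For 20 sets of 4 libraries, each a gene or ratio in controls or in β-tetO-NICD islets, the distance of the outermost library from the next was taken as a share of the range. In 2 of them this gap exceeded Dixon's 95% critical value. Chance alone gives about 1 in 20. Irx1 in control 3 had a gap of 0.934, with 19.3 CPM against 7.94 to 8.69 CPM in the other controls. Etv1 in β-tetO-NICD library 1 had a gap of 0.860, with 78.3 CPM against 27.7 to 34.8 CPM in the other β-tetO-NICD libraries. Control 3 and β-tetO-NICD library 1 are also the libraries whose length trend has the opposite sign to the rest of their group, and the part of that trend in these values was not tested.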

How the results depend on the processing

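Irx1, Irx2 and Hhex kept a log2 fold change above 0 in each of 25 alternatives, and DESeq2, limma-voom, other normalizations and other filters kept their calls. Values for Irx1, Irx2 and Hhex that were no longer called were 1.33, 1.12 and 0.68 with the length trend as a covariate (adjusted p 0.0819, 0.136 and 0.175), 1.45, 1.31 and 0.997 with the Eif2s3y covariate, 1.01, 0.85 and 0.70 in the 5 libraries with at most 1 Eif2s3y count, and 1.95, 1.66 and 1.36 in the libraries numbered 1 and 2 alone (added after seeing the data). Each of these settings called 0 of the 5 genes. Irx2 was not called with the acinar covariate (1.21), and Irx2 (1.17) and Hhex (0.76) were not called with the class of length trend as a covariate, an alternative chosen after seeing the data that called 1. Pou3f4 was -0.046 without control 3 and β-tetO-NICD library 1, also chosen afterwards. Etv1 was -0.56 there and called (adjusted p 0.0188), and turned positive at 0.057 with upper-quartile normalization, 0.013 with 10 counts required in all libraries, 0.48 with the length trend covariate, 0.29 with the length offset, 0.17 in the libraries with at most 1 Eif2s3y count, 0.10 with the replicate block, 0.27 in the numbered libraries without it and 0.28 with the trend class. The ratios of Irx1 and Irx2 to Gcg were 0.30 and 0.13 with the length offset. The cause was not tested.

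Over all genes, 1020 calls became 2739 with DESeq2, 447 with the length trend covariate, 1585 with the length offset, 122 in the libraries with at most 1 Eif2s3y count, 5930 without control 3 and β-tetO-NICD library 1 and 608 with the trend class. Leaving out each library gave 374 to 5011 calls, 0 to 4 of the 5 genes, and log2 fold changes of 1.33 to 1.87 (Irx1), 1.07 to 1.62 (Irx2), -0.089 to 0.74 (Pou3f4), 0.83 to 1.22 (Hhex) and -0.49 to 0.15 (Etv1). Log2 ratio differences then ranged from -0.19 to 0.12 (Irx1 to Gcg), -0.46 to -0.13 (Irx2 to Gcg), -1.78 to -0.95 (Pou3f4 to Gcg), -0.65 (without β-tetO-NICD library 1) to -0.27 (Hhex to Sst) and 0.18 to 0.30 (Irx1 to Irx2), none with an exact p under 0.05.

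The replicate block could use only the libraries numbered 1 and 2. It called 595 genes against 52 without the block, and Irx1, Irx2 and Hhex, at 1.93, 1.64 and 1.37, were called. The deviations of same-numbered libraries correlated at 0.0617. With 2 libraries per group this rests on a single contrast, so it cannot show whether same-numbered libraries share more than a number. Pou3f4 had 15 to 83 counts per library, the fewest of the 5 genes.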

Other observations

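Genes that neighbour the 5 in the genome were read beside them. Within 100000 bases, the neighbours with enough counts to be tested were Kif11 and Ide, each near Hhex. Kif11, a mitotic kinesin gene 12951 bases away, was 1.59 ± 0.441 CPM in controls against 1.20 ± 0.389 CPM in β-tetO-NICD islets (SD, n = 4 per group), or a log2 change of -0.40 (adjusted p 0.431). Ide, the insulin-degrading enzyme gene 96958 bases away, was 40.4 ± 3.50 and 31.0 ± 3.26 CPM, a log2 change of -0.38 (adjusted p 0.103). Neither was called, and each value is opposite in sign to that of Hhex.

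The genes with profiles most like Irx1, Irx2 and Hhex were each called higher. Edn3, which encodes a secreted endothelin, was 18.1 ± 5.99 CPM in controls against 35.9 ± 6.02 CPM in β-tetO-NICD islets, a log2 change of 0.98 (adjusted p 0.0347). Efna5 was 20.5 ± 2.75 and 67.2 ± 16.0 CPM, a log2 change of 1.71 (adjusted p 0.00139). Genes alike in profile to a called gene share its difference between the groups, so these values are no independent support. Those most like Etv1 and Pou3f4, such as Myt1l at -0.26 and Slc6a19 at 0.62, were not called.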
